A study of Mus musculus with 2 samples.

Results

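The 10 genes described here encode transcription factors and cofactors of blood stem and progenitor cells. Lmo2, Lyl1, Tal1, Erg, Fli1, Runx1 and Gata2 belong to the group known as the stem cell heptad, and Nfe2, Gfi1b and Zfpm1 work beside them in megakaryocyte and erythroid cells. The genes were picked by name with a comparison of these libraries already known, so their healthy and leukemia values were selected on and stand here as a description, with no test. All 10 were found by NCBI Gene ID among 23248 genes listed in either library. Of the 10, 9 reached 1 FPKM (fragments per kilobase of transcript per 1000000 fragments) in at least 1 library, and Tal1 did not. Erg, Gata2 and Gfi1b reached that level in the leukemia library alone, so a difference was built into their passing.

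RNA was sequenced from regulatory T (Treg) cells, the CD4 T cells that restrain immune responses, sorted from mouse spleen as CD4+ and FOXP3-GFP+ cells. All mice were 6 to 8 weeks old and carried the allele Foxp3tm3(DTR/GFP)Ayr on the background B6.129(Cg). In these mice the Foxp3 locus also drives a diphtheria toxin receptor fused to a green fluorescent protein, and both groups carry it. Leukemia mice received 800000 leukemia cells, were not irradiated, and were sorted at day 18 of a disease with survival of 30 to 40 days. The healthy mice were given PBS (phosphate-buffered saline) in place of cells. The genetic lesion of the leukemia and the number of mice behind each library are unknown here, as the labels do not name them. Each group is 1 library, so no difference below has a replicate check.

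The healthy library held 8929601 estimated reads and the leukemia library 8897162. The 6 Treg markers had reads in both libraries, with summed levels of 919 and 609 FPKM in healthy and leukemia. All 7 myeloid progenitor markers (Mpo, Elane, Prtn3, Ctsg, Cd34, Kit and Flt3) were at least 2-fold higher in leukemia, with sums of 4.29 and 1209 FPKM. Mast cell and basophil markers summed to 6.89 and 40.5 FPKM, with 3 of 7 called higher. Sums were 17.1 and 14.9 FPKM for 7 erythroid, 19.0 and 13.3 for 10 megakaryocyte and platelet, 2.90 and 2.78 for 6 endothelial, 15.4 and 26.5 for 6 B cell and 678 and 342 for 6 macrophage markers. No matched marker was at 0 reads in either library. The part of these cells' RNA in the results below was not tested, and in bulk RNA fewer cells of a type and less RNA per cell cannot be told apart.

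The factors bind DNA together. LMO2 does not touch DNA itself: it bridges TAL1 or LYL1, which pair with E proteins on E-box motifs, to a GATA factor, and the adaptor LDB1 holds these assemblies together. ERG and FLI1 are ETS factors and RUNX1 binds with CBFB, and in stem and progenitor cells the 7 proteins occupy many of the same enhancers. Several of them are also known from leukemia through translocation or raised expression. T cells normally use FLI1 and RUNX1 but silence LMO2, LYL1 and TAL1 during thymic development.

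Of the 10 genes, Tal1 stayed under 1 FPKM in both libraries. Among the other genes, a set was low in the healthy library and much higher in the leukemia library. The rest were present in both at nearly the same level. A gene was called higher when its log2 ratio reached 1 and lower when it reached -1, where the ratio is log2((FPKM leukemia + 1) / (FPKM healthy + 1)) and understates the difference of low genes. Lmo2, Lyl1, Nfe2, Erg, Gata2 and Gfi1b were called higher, 6 of the 9 genes at 1 FPKM or more, where 6.55% of all 13717 such genes were. None of the 9 was called lower, against 1.95% of all genes. An exact 95% interval of the read ratio, which covers counting error only, lay above 1 for 7 of the 9, the 6 called higher and Runx1, against 29.0% of all genes. It lay below 1 for Fli1, against 23.5% of all genes. As the genes were picked on this contrast, nothing is read from these shares. Over all genes 898 were called higher and 267 lower, and 1886 and 152 when the libraries were centred on T cell receptor signalling genes, a scaling that moves the median of all genes from 0.02 to 0.45. That scaling raises the log2 ratio of every gene with leukemia reads, so the 6 genes called higher could not drop under 1. Among them Gfi1b was the lowest on that scale and Lmo2 the highest at 4.63.

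**Figure D1:**
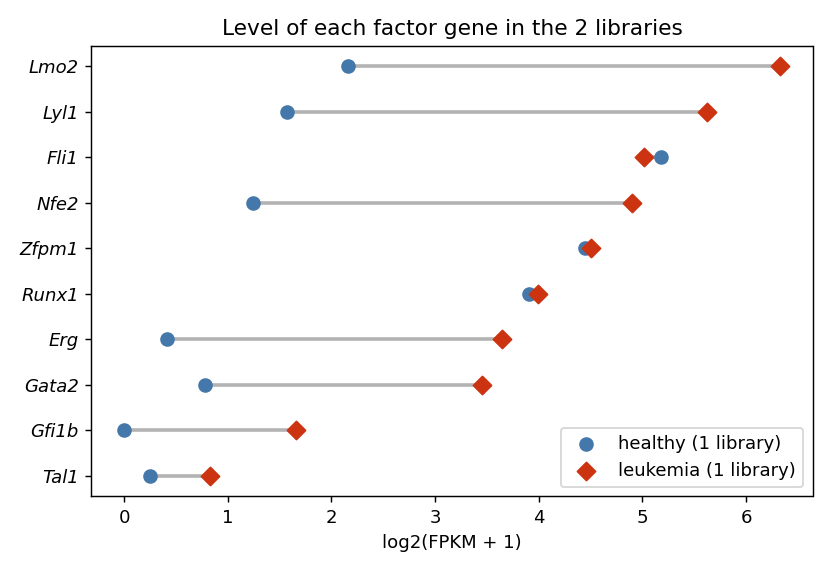
Level of the 10 genes as log2(FPKM + 1) on the horizontal axis, with a circle for the healthy and a diamond for the leukemia library, 1 library each, ordered by the leukemia level. Fli1, Zfpm1 and Runx1 have both symbols close together, while Lmo2 runs from 3.48 to 79.2 FPKM and Lyl1 from 1.98 to 48.3 FPKM.

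The order of the genes by level differed between the libraries too. In the healthy library Fli1 was first at 35.2 FPKM, followed by Zfpm1 and Runx1. These 3 genes held 89.6% of the summed FPKM of the 10. In the leukemia library Lmo2 led, followed by Lyl1 and then Fli1, and the same 3 genes held 27.3%. Their own sum was nearly equal, 69.9 FPKM without and 67.9 FPKM with leukemia. The sum of the other 7 genes went from 8.07 to 181 FPKM, or from 14.9 to 327 reads per 1000000. This split at 5 FPKM in the healthy library was chosen after the values were seen. Among the 13717 genes, Lmo2 stood at percentile 27.7 of the healthy and percentile 92.5 of the leukemia levels, and Runx1 at 60.1 and 60.2.

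**Figure D2:**
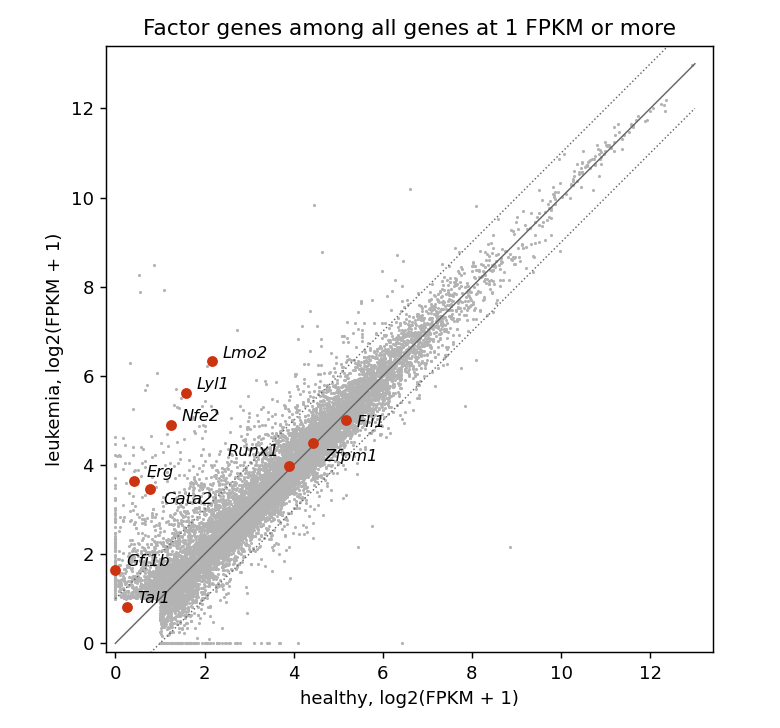
Each grey point is 1 of the 13717 genes that reached 1 FPKM, with log2(FPKM + 1) in healthy on the horizontal and in leukemia on the vertical axis, and red points are the 10 genes, including Tal1, which lies under that level. The solid line marks equal levels and the dotted lines a log2 ratio of 1 and -1. Lmo2, Lyl1, Nfe2, Erg, Gata2 and Gfi1b lie above the upper dotted line, and Fli1, Runx1 and Zfpm1 lie near the solid line.

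Lmo2 (NCBI Gene 16909), the bridging LIM protein, had 48 reads and 3.48 FPKM in the healthy library and 1088 reads and 79.2 FPKM in the leukemia library. Its read ratio was 22.7, with an interval of 17.0 to 31.0, and its log2 ratio of 4.16 ranked 19 among the 13717 genes. It was the most abundant of the 10 in leukemia. Its paralogue Lmo1 (109594), a T cell leukemia oncogene, had 1 read in healthy and 69 reads in leukemia, at 0.12 and 7.62 FPKM, a read ratio of 69.3 with an interval of 12.0 to 2774. Lmo4 (16911) was at 15.9 and 19.4 FPKM, and Lmo3 had under 1 estimated read in either library. Of the summed FPKM of the LMO family, Lmo2 took 17.8% in healthy and 74.6% in leukemia, while Lmo4 had been the main LMO transcript in the healthy library.

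Lyl1 (17095) and Tal1 (21349) encode related basic helix-loop-helix factors that can take the same place beside LMO2, and these libraries held them at very unequal levels. Lyl1 had 31 reads and 1.98 FPKM in healthy and 774 reads and 48.3 FPKM in leukemia, a read ratio of 25.1 (17.5 to 37.1). Tal1 had 7 and 29 reads, at 0.19 and 0.77 FPKM, a read ratio of 4.16 (1.78 to 11.2). Lyl1 thus stood 10.4 times above Tal1 per length in healthy and 62.7 times above it in leukemia, where Tal1 was the lowest of the 10. On the scale with a pseudocount of 1 FPKM added, the log2 ratio of Tal1 was 0.57 and not called, and it became 1.58 with a pseudocount of 0.1 FPKM and 1.25 on TMM-scaled reads per 1000000. Tal2, another close relative, had 3 reads in healthy and none in leukemia, so Lyl1 made up 98.4% of the family's FPKM in the leukemia library.

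The promoter of Lyl1 is shown because of the genes with a window in the RefSeq table (GRCm38.p6) Lyl1 had the highest FPKM in the leukemia library. The table gives 12 windows for 7 of the 10 genes, 250 bases before to 50 bases after a start site, and holds none for Lmo2, Nfe2 and Fli1. The window lies at chr8:84701207-84701506 on the plus strand. Capitals mark matches on either strand to the searched motifs: an ETS core CCGGAA, another form of the ETS core, AGGAAG, the GATA site written as AGATAA, the E-box CAGNTG, the core bound by RUNX factors, TGTGGT, the NF-E2 core given by TGANTCA and the GFI1 core with the letters AATCAC. No pair of these overlaps in the windows printed here.
Lyl1 promoter: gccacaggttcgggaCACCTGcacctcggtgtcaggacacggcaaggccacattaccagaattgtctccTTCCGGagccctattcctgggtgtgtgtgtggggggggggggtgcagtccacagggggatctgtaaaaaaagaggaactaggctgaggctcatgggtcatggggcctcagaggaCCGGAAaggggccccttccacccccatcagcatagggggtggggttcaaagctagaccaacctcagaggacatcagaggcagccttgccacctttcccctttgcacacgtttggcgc
It holds CCGGAA on both strands, starting 181 and 67 bases before the start site, and 1 E-box. Of all 32851 windows in the table, 14.9% hold CCGGAA and 51.4% hold CAGNTG, and a match is only a run of letters, not a bound site.

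Erg (13876) and Fli1 (14247), a pair of closely related ETS factors, stood far apart in the healthy library and less so in the leukemia library. Erg had 7 reads and 0.33 FPKM in healthy and 286 reads and 11.6 FPKM in leukemia, a read ratio of 41.0 (19.6 to 103), which is the highest among the 9 genes with reads in both libraries. Fli1 had 1009 and 900 reads, at 35.2 and 31.4 FPKM, a read ratio of 0.895 (0.817 to 0.980). Fli1 transcripts were 107 times those of Erg per length in the healthy library and 2.72 times in the leukemia library. Erg therefore went from 0.930% to 26.9% of the FPKM of the ERG subfamily, whose remaining gene, Fev, had no reads. The Fli1 log2 ratio was -0.16 on the deposited scale but 0.31 when the libraries were centred on T cell receptor signalling genes, and per read of those genes its ratio was 1.26 (1.15 to 1.38), so its direction rests on the scaling. Ets1 (23871), the dominant ETS gene of T cells, was at 348 and 234 FPKM, a read ratio of 0.670 (0.654 to 0.687). This ratio is over library totals, and reads of the T cell receptor signalling genes also went from 81643 to 57845.

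Within the whole ETS family, Erg was 1 of 2 genes called higher among 19 at 1 FPKM or more, the other being Spi1, which encodes the myeloid factor PU.1, at 9.40 and 55.1 FPKM. Spic, a factor of iron-recycling macrophages, was the 1 gene called lower, at 40.1 and 17.3 FPKM. Its log2 ratio was -1.17 as deposited, and this call rests on the scaling. Etv6 lay under the call at 9.60 and 18.4 FPKM, a read ratio of 1.92 (1.71 to 2.15). The 19 genes had a median log2 ratio of -0.18, against 0.02 for all genes, and 0.28 against 0.45 on the T cell scale. Erg has 3 windows in the RefSeq table, spread over 127245 bases, and the one farthest downstream is shown because of the 3 it alone holds any of the motifs, in a gene whose reads went from 7 to 286. It lies at chr16:95459299-95459598 on the minus strand, with capitals as above.
Erg downstream promoter: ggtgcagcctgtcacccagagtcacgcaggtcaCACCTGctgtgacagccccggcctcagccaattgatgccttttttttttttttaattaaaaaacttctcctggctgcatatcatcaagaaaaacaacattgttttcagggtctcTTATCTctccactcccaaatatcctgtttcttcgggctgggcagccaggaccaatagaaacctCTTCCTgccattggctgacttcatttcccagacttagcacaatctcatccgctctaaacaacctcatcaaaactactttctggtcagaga
The matches are 1 E-box, 1 AGATAA on the opposite strand starting 103 bases before the start site and 1 AGGAAG on the opposite strand starting 40 bases before it. AGATAA occurs in 11.2% and AGGAAG in 35.4% of all windows.

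Gata2 (14461), the GATA factor of stem cells, early progenitors and mast cells, had 21 reads and 0.72 FPKM in healthy and 303 reads and 9.98 FPKM in leukemia, a read ratio of 14.5 (9.30 to 23.7). Gata1 (14460), which replaces it on shared sites as erythroid and megakaryocyte cells mature, had 243 and 163 reads at 14.0 and 9.47 FPKM, its read ratio being 0.673 (0.549 to 0.824). Its log2 ratio was -0.52 as deposited and -0.08 on the T cell scale, so the size of its difference rests on the scaling. Gata2 was at 0.0514 of the Gata1 level in healthy and at 1.05 times it in leukemia. Gata3 (14462), the GATA factor of T cells, stayed the most abundant of the family at 44.4 and 29.6 FPKM, a read ratio of 0.670 (0.614 to 0.731). The listed transcription factors of T cells, Gata3 among them, had a median log2 ratio of -0.43 as deposited and 0.03 on the T cell scale. The summed GATA level was 59.6 FPKM without and 49.3 FPKM with leukemia, and the share of Gata2 went from 1.21% to 20.2%.

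**Figure D3:**
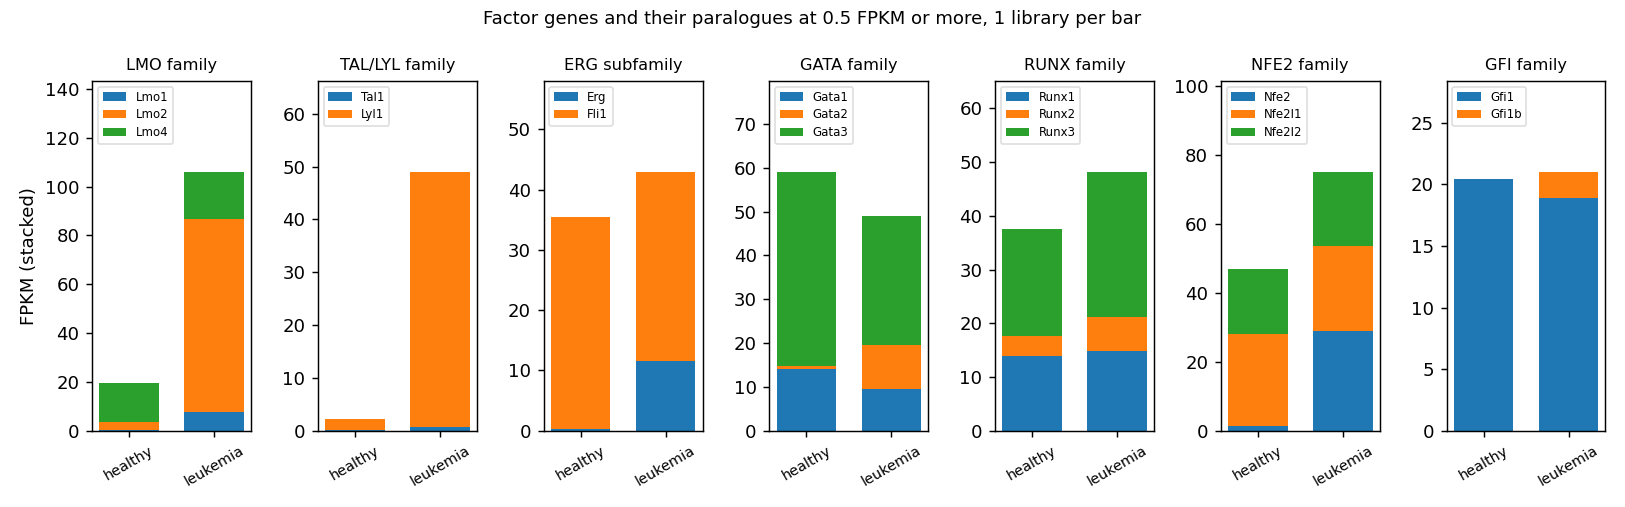
Stacked FPKM of the genes with their paralogues in 7 families, for genes at 0.5 FPKM or more, with 1 library per bar and a separate vertical axis for each family. Lmo2 fills most of the LMO bar in leukemia and little of it in healthy, Lyl1 nearly all of the TAL and LYL bar, and Runx1 a similar part of both RUNX bars.

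Runx1 (12394), needed for the first blood stem cells and also for T cells and Treg function with FOXP3, had 740 reads and 14.0 FPKM in healthy and 827 reads and 14.9 FPKM in leukemia. The read ratio was 1.12 (1.01 to 1.24). Its relatives stood further apart: Runx2 was at 3.66 and 6.30 FPKM, its read ratio being 1.82 (1.51 to 2.19), and Runx3, a factor of cytotoxic and other T cells, at 19.9 and 27.1 FPKM, the ratio being 1.37 (1.24 to 1.52). Runx1 accordingly made up 37.2% of the family's FPKM in healthy and 30.8% in leukemia. Its partner Cbfb, which has no DNA contact of its own, was at 59.7 and 56.1 FPKM. Centred on T cell receptor signalling genes, the log2 ratio of Runx1 was 0.54, against a median of 0.45 for all genes on that scale.

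Both start sites that RefSeq gives for Runx1 are shown because the distal and proximal promoters are used to different extents across blood stages, and the gene-level value cannot separate them. They lie 128745 bases apart on the minus strand, the distal window at chr16:92826025-92826324 and the proximal at chr16:92697280-92697579. The first bases after the proximal start were found in no Runx1 transcript of the GENCODE vM21 set, while those of every other window were found in a transcript of its gene.
Runx1 distal promoter: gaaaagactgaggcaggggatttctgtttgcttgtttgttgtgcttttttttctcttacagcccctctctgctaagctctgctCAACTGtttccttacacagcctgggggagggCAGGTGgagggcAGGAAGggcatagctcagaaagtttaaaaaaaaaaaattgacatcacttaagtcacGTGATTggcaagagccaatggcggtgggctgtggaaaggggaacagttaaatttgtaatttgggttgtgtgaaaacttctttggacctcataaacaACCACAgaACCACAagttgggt
Runx1 proximal promoter: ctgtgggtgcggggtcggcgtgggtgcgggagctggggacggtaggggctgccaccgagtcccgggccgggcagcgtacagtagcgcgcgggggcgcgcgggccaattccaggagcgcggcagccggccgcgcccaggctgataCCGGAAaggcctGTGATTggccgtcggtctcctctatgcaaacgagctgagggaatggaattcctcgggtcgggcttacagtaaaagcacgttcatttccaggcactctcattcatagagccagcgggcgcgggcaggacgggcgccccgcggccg
The distal window holds the complement of TGTGGT in duplicate, starting 29 and 37 bases into the transcript, and is the 1 window among the 12 with this RUNX core, which 16.8% of all windows hold. It also holds AGGAAG, 2 E-boxes and a GFI1 core, while the proximal window holds CCGGAA and a GFI1 core. The GFI1 core AATCAC occurs in 10.4% of all windows. None of the 12 windows held the NF-E2 core TGANTCA, which 7.81% of all windows hold, so nothing is read from its absence. The Gfi1b and Zfpm1 windows held none of the motifs marked by capitals.

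Nfe2 (18022), the large subunit of the NF-E2 factor that drives platelet formation and globin expression, had 19 reads and 1.37 FPKM in healthy and 396 reads and 28.8 FPKM in leukemia, a read ratio of 20.9 (13.2 to 35.1). The related genes that T cells express were close to even, with Nfe2l1 at 26.7 and 24.8 FPKM and the oxidative stress factor Nfe2l2 at 18.9 and 21.6 FPKM. Nfe2l2 was 13.8 times the Nfe2 level in healthy and 0.750 times in leukemia. NFE2 binds DNA only with a small MAF protein, and the 3 small MAF genes went different ways. Mafg was at 4.96 and 10.8 FPKM (log2 ratio 0.98), just under the call, its read ratio being 2.18 (1.65 to 2.90). Mafk was at 27.7 and 16.9 FPKM (-0.69), the ratio being 0.613 (0.543 to 0.691). Maff was called lower at 8.61 and 2.71 FPKM (-1.37), the ratio being 0.317 (0.220 to 0.450). The listed partners and competitors of NFE2 had a median log2 ratio of -0.10 as deposited and 0.36 on the T cell scale. The competitor Bach2, a repressor that T cells use to stay quiescent, was at 9.32 and 5.77 FPKM, and Bach1 at 4.36 and 5.07 FPKM.

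Gfi1b (14582), a repressor of erythroid and megakaryocyte cells, had no entry in the healthy table, taken as 0 reads, and 34 reads and 2.15 FPKM in leukemia. With the healthy count set to a floor of 3 reads per library it was at least 11.4-fold higher. The exact interval also takes in the counting error of the 34 leukemia reads, and starts lower, at 8.76. Gfi1, the paralogue used by T cells and neutrophil precursors, was at 20.4 and 18.9 FPKM, so that Gfi1b remained the minor of the pair, at 10.2% of their summed FPKM in leukemia. Zfpm1 (22761), also called FOG1, the cofactor through which GATA1 acts, had 668 and 699 reads at 20.8 and 21.6 FPKM, its read ratio being 1.05 (0.943 to 1.17). Its log2 ratio was 0.06, -0.02 when FPKM was rescaled to 1000000 per library and 0.51 when centred on T cell genes, so no direction is given. As deposited this log2 ratio was the nearest to 0 of the 10, while Runx1 was nearer after the rescaling (0.01) and Fli1 on the T cell scale (0.31). Its relative Zfpm2 had 1 read in healthy and none in leukemia.

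**Figure D4:**
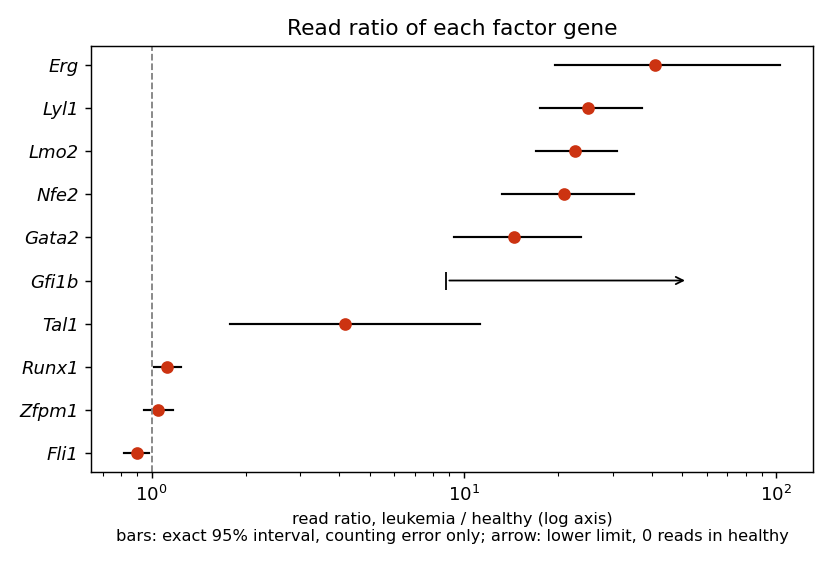
Read ratio of each gene, leukemia over healthy, on a log axis with its exact 95% interval, which covers counting error only. The arrow for Gfi1b starts at its lower limit of 8.76, as it had 0 reads in healthy. The intervals of Erg, Lyl1, Lmo2, Nfe2 and Gata2 lie above 9, that of Tal1 starts at 1.78, and those of Runx1, Zfpm1 and Fli1 lie near 1.

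The read-ratio intervals of Erg, Lyl1, Lmo2, Nfe2 and Gata2 overlap one another, and the differences between these ratios were not tested. The interval of Runx1 overlaps that of Zfpm1 but not that of Fli1. Low healthy counts set the width: with 7 reads the Erg interval spans 19.6 to 103, and with 48 reads that of Lmo2 spans 17.0 to 31.0.

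The partners that complete the LMO2 complex were mostly expressed in both libraries, with a small median log2 ratio as deposited. Of 8 listed partners 7 reached 1 FPKM, 1 was called higher and none lower, and their median log2 ratio was 0.08, with 0.01 to 0.54 over the other settings tried. On library totals the read-ratio interval lay above 1 for 3 of the 8 and below 1 for 3. Among all genes at 1 FPKM or more the shares were 29.0% and 23.5%. As deposited, T cell receptor signalling genes had a median log2 ratio of -0.48. Ldb1, the adaptor, was at 248 and 188 FPKM, 71.3 times the Lmo2 level in healthy and 2.37 times in leukemia. Ssbp3 and Ssbp4, which stabilise LDB1, were at 48.2 and 35.5 FPKM and at 58.6 and 75.7 FPKM. The E proteins, which pair with LYL1 or TAL1, did not move together. Tcf4 (21413), which encodes E2-2, was called higher at 1.72 and 18.6 FPKM, its read ratio being 10.5 (8.66 to 12.8), Tcf3 was at 26.6 and 32.8 FPKM, and Tcf12, which encodes HEB, at 23.1 and 16.0 FPKM. Tcf4 was at 0.0745 of the Tcf12 level in healthy and at 1.16 times it in leukemia.

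Corepressors and other cofactors of these factors likewise had a small median log2 ratio, -0.09, with -0.16 to 0.38 over the other settings. The read-ratio interval lay above 1 for 3 and below 1 for 6 of the 18 listed, beside shares of 29.0% and 23.5% of all genes. Of the 17 at 1 FPKM or more, 1 was called higher and none lower. The 1 gene was Cbfa2t3 (12398), which encodes ETO2, a corepressor that joins the TAL1, LMO2 and LDB1 complex in progenitors, with 37 and 372 reads at 0.56 and 5.46 FPKM, its read ratio being 10.1 (7.19 to 14.6). Its relatives Cbfa2t2 and Runx1t1 were at 5.59 and 4.67 FPKM and under 0.1 FPKM. Kdm1a, the histone demethylase recruited by GFI1B, was at 23.2 and 24.0 FPKM, and Hdac1 at 112 and 107 FPKM. Crebbp and Ep300, acetyltransferases with broad roles, were at 14.9 and 9.84 FPKM and at 19.5 and 14.0 FPKM.

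Genes of the lineages in which the 10 factors act differed by lineage. Of 20 stem cell genes 9 reached 1 FPKM, and Cd34, Meis1, Hhex and Kit were the 4 called higher, with none lower. Of the 9, 5 had a log2 ratio above 0 and 4 below it. The median of the list depends on which genes are kept, being 0.52 as deposited, 0.09 with no filter and 2.71 with a filter of 5 FPKM. Hhex, a homeobox factor of early progenitors, had 26 and 246 reads at 1.65 and 15.6 FPKM, and Meis1 9 and 240 reads at 0.29 and 7.80 FPKM. Several genes of long-lived stem cells were low in both libraries: Mecom had 11 and 12 reads, Procr 12 and 9, Fgd5 6 and 7, Mycn 1 and 1, and Hoxb5 0 and 1. Hlf, also low in both, had 25 and 12 reads, a read ratio of 0.482 (0.221 to 0.995). Over the 20 listed genes, with no filter, the read-ratio interval lay above 1 for 6 and below 1 for 2. Among all genes at 1 FPKM or more the shares were 29.0% and 23.5%. Angpt1 stayed under 1 FPKM with 2 and 32 reads, a read ratio of 16.1 (4.10 to 138). Myeloid progenitor genes had 14 of 20 called higher and none lower, and a median log2 ratio of 2.18, with Myb, a factor of progenitors, at 11.1 and 57.1 FPKM. The lists share genes, so their calls are not separate observations. Cd34 and Kit are called in both the stem cell and the myeloid list, and Myb also among the T cell factors.

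Erythroid and megakaryocyte genes, in whose cells GATA1, NFE2, GFI1B, TAL1 and ZFPM1 act together, were mixed. Of 12 erythroid genes at 1 FPKM or more, 3 were called higher and 1 lower, with a median log2 ratio of 0.08 (0.03 to 0.47 over the other settings). Over all 25 matched genes the read-ratio interval lay above 1 for 9 and below 1 for 4. Among all genes at 1 FPKM or more the shares were 29.0% and 23.5%. The 25 include genes under that level, so nothing is read from these counts. Klf1, the erythroid master factor, had 2 and 24 reads at 0.15 and 1.76 FPKM, its read ratio being 12.0 (2.99 to 105), Rhd 1 and 22 reads, and Car1 was at 16.4 and 36.7 FPKM. Below 1 FPKM in both libraries, Hemgn had 2 and 14 reads, Slc4a1 4 and 23, Ank1 6 and 29, Tspo2 1 and 9, and Kel 0 and 16, each with an interval above 1. Epor, the erythropoietin receptor gene, had 13 and 12 reads. Going the other way, Alas2 had 27 and 12 reads, a read ratio of 0.446 (0.206 to 0.911). Hba-a1 had 385 and 326 reads, its read ratio being 0.850 (0.731 to 0.988). With Gata1 and Hbb-b1 these make up the 4 genes with an interval below 1. The lower gene, Hbb-b1, is a near-identical globin copy and its value is uncertain, and Hbb-b2 had no reads in either library. Of 11 megakaryocyte and platelet genes none was called higher and 1 lower, with a median of -0.24 (-0.37 to 0.08 over the other settings). The read-ratio interval lay above 1 for 0 and below 1 for 5 of the 20 listed. Beside the same shares of all genes, 29.0% and 23.5%, nothing is read from these counts either. Itga2b was at 2.10 and 2.65 FPKM, Ppbp at 6.67 and 4.01 FPKM and the lower gene Selp at 2.23 and 0.55 FPKM.

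Mast cell and basophil genes, of which several depend on GATA2, had 4 of 10 called higher and 2 lower. Kit, which the stem cell and myeloid lists also hold, is 1 of the 4. Their median of 0.58 depends on which genes are kept, being 2.10 with a filter of 5 FPKM and 0.30 with none, and was 1.02 with a pseudocount of 0.1 FPKM. Cpa3, a mast cell and progenitor protease, was at 0.54 and 19.4 FPKM, its read ratio being 36.0 (17.2 to 90.4), and the basophil protease Mcpt8 at 2.04 and 12.1 FPKM. The lower genes were Ccr3 and Il4, and the mast cell tryptase genes Tpsb2 and Tpsab1 and the protease gene Mcpt1 had no reads in either library. Endothelial genes, since ERG, FLI1, LYL1 and TAL1 also act in vessel cells, had 1 of 4 called higher, Egfl7 at 0.59 and 4.43 FPKM, while Cdh5, the endothelial cadherin, was even at 1.41 and 1.47 FPKM and Kdr had 20 and 18 reads. Egfl7 also hosts a microRNA and is expressed by stem cells. Transcription factors of T cells had 1 of 17 called higher, Myb, and none lower, with a median of -0.43 (0.03 on the T cell scale): Tcf7 was at 348 and 232 FPKM and Bcl11b at 65.9 and 40.7 FPKM.

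**Figure D5:**
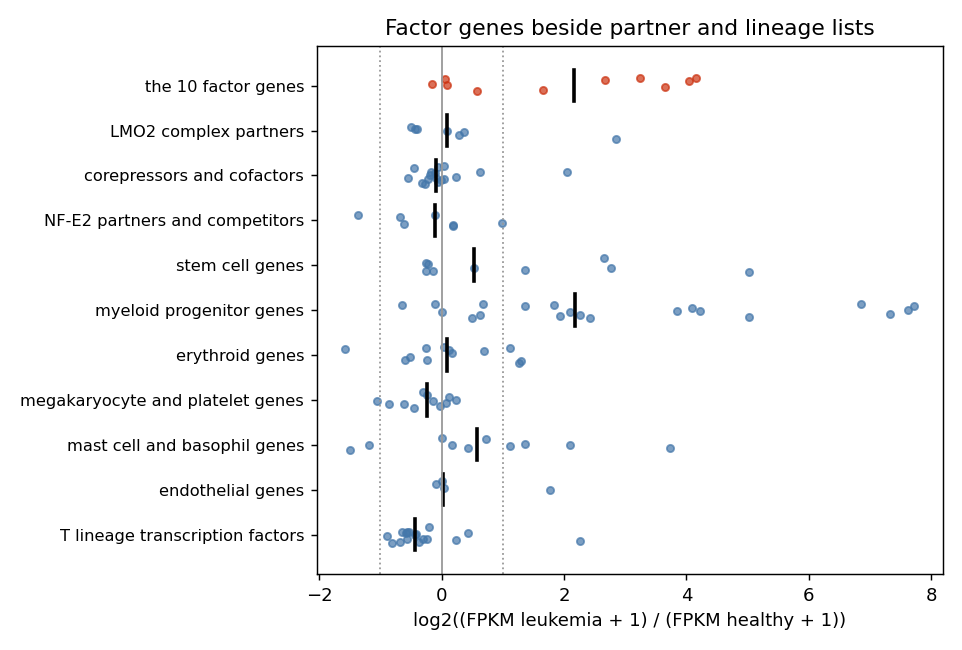
Log2 ratio of leukemia over healthy, with a pseudocount of 1 FPKM, for the 10 genes (red, all 10 shown) and for the members at 1 FPKM or more of 10 partner and lineage lists (blue). Black bars are medians and dotted lines mark 1 and -1. The 10 genes have a median of 2.16, myeloid progenitor genes 2.18, erythroid genes 0.08, megakaryocyte and platelet genes -0.24 and T lineage transcription factors -0.43; the last 2 are 0.08 and 0.03 when centred on T cell genes.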

How the data were processed

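Bowtie2 2.2.5 and RSEM are the tools named in the submitters' processing notes. The RSEM version, genome build, annotation release and strand setting are each not given in the sources used here. The deposited tables, per the file headers, hold for each gene an expected count (an estimated count that need not be whole), an FPKM value given by the authors to 2 decimals, and a length. Median library totals implied by count, length and FPKM were 1.00 and 1.01 times the summed counts, so the authors' FPKM uses each library's own total. RSEM shares reads among similar genes by estimate, and overlapping genes are not separated where strand was not used.

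Genes were named through the RefSeq gene table (GRCm38.p6), which matched 21713 of 23248 IDs. A gene listed in 1 table was taken as 0 in the other. The log2 ratio used a pseudocount of 1 FPKM and genes that reached 1 FPKM in at least 1 library. Read ratios used estimated counts rounded to whole numbers, each over its library total, with exact (Clopper-Pearson) 95% intervals (scipy 1.17.1). The code was checked on simulated counts that had counting error alone. That check left out genes with few healthy reads and could not show errors of read assignment or differences between mice. The intervals set one library against the other and say nothing of the conditions. A count of 0 allows 3 reads, or 0.336 per 1000000 in healthy and 0.337 in leukemia. With 1 library per group no test across genes was run. Alternatives were a pseudocount of 0.1 FPKM, rescaling to 1000000 (TPM), the median ratio, TMM-scaled reads per 1000000 (edgeR 4.0.16), no filter or 5 FPKM, a call that also needs the interval to leave out 1, and centring on T cell receptor signalling genes (median log2 ratio -0.48). Named were all 10 genes, their paralogues and partners, and up to 5 genes of each lineage list with the largest ratios. Genes at 0 in both libraries were named as well. Lmo3, Tal2, Zfpm2, Runx1t1, Epor, Hemgn, Slc4a1, Ank1, Tspo2, Kel, Alas2 and Hba-a1 were named after their values were seen. So were Procr, Mecom, Fgd5, Mycn, Hoxb5, Hlf, Angpt1, Itga2b, Kdr and Tcf7. The genes, lists and the centring were chosen with earlier results of these data known. Ahsp was not matched. A planned comparison of the proteins was not run, and protein sequences were not used here.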

Additional observations from a re-analysis of the deposited data

How the results depend on the processing

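No paired analysis was possible because each group has 1 library. The count of the 10 genes called higher was 6 under every alternative run except a filter of 5 FPKM, which leaves out Gfi1b and gave 5. Part of this was fixed in advance. Centring on T cell receptor signalling genes raises the log2 ratio of every gene with leukemia reads. A pseudocount of 0.1 FPKM moves every ratio further from even. Neither could take away a higher call. The median ratio was 1.01 and the TMM factors 0.995 and 1.01, so these scalings shifted the libraries little against each other. With a pseudocount of 1 FPKM no gene under 1 FPKM in both libraries can reach the call. Dropping the filter therefore could not change the counts. The runs with another pseudocount or scaling kept the filter of 1 FPKM, which leaves out Tal1. Its log2 ratio was 1.58 with a pseudocount of 0.1 FPKM and 1.25 on TMM-scaled reads per 1000000. The median log2 ratio of the 10 genes was 2.16, and 3.96 with a pseudocount of 0.1 FPKM. Among all genes, 898 were called higher and 267 lower. The lower count was 493 with a pseudocount of 0.1 FPKM, 414 after rescaling to 1000000 and 169 when the read-ratio interval had to leave out 1. With a filter of 5 FPKM the counts were 590 and 135. Centring on T cell receptor signalling genes gave 1886 higher and 152 lower and moved the median of all genes from 0.02 to 0.45. On that scale the read ratio of Fli1 was 1.26, against 0.895 on library totals. The filter counts differ because fewer genes are tested; for the other settings the cause was not tested. Depth limits genes with few healthy reads: Tal1 and Erg had 7 each and Gfi1b none.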

Other observations

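RSEM's gene length is a mean over a gene's transcripts weighted by their estimated shares, so it can differ between libraries where transcript use differs. For Runx1, with 4 listed transcripts, it was 5860 bases in healthy and 6159 bases in leukemia, 5.11% longer. Among 6497 genes with several transcripts and at least 100 reads in both libraries, 8.17% differed by more than 5% in either direction, and Runx1 lay at percentile 96.4 of the signed difference. The lengths of Fli1 and Zfpm1, the other genes of the 10 with at least 100 reads in both, differed by 0.125% and 0.623%. Which Runx1 transcripts account for the difference was not tested.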
